A study of Homo sapiens with 12 samples.

Results

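Sucrose-gradient RNA was examined for 6 long noncoding RNAs, chosen by name among the 56632 genes of the deposited tables for where in the cell they are known to sit. MALAT1, NEAT1 and KCNQ1OT1 are known as nuclear-retained, whereas NORAD, OIP5-AS1 and TUG1 are known as partly or mainly cytoplasmic. The rule uses no measured value, although earlier results of these data were known when the members were chosen, and 5 of the 6 passed the filter on low counts and were tested among 16275 genes. MCF10A, a human line of breast epithelium that forms no tumors, was compared as WT (unedited) and CBFB_KO (CBFB deleted by CRISPR). All cells were treated with cycloheximide, which holds ribosomes on the mRNA, at 100 µg/ml for 30 min, and their cleared lysates were spun through linear sucrose gradients of 10 to 50%. RNA was sequenced from the free fraction (not on ribosomes), the monoribosomal fraction (mono) and the pooled polyribosomal fraction (poly) of each genotype in 2 replicates, which makes 12 libraries and 6 conditions (n = 2 each). Edited cells were grown from single cell colonies according to the study's methods, so CBFB_KO may be a single clone. No label says that the 2 libraries of a condition came from separate cultures, so the p-values measure the spread between these libraries, which may be technical.

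Long noncoding RNAs are transcribed and processed much as mRNAs are but encode no known long protein. Those held in the nucleus do not meet ribosomes, while some cytoplasmic ones do bind ribosomes at short open reading frames. MALAT1 lies in nuclear speckles, which store splicing factors, and the long transcript of NEAT1 is the scaffold of paraspeckles, nuclear bodies built with proteins such as NONO and SFPQ. KCNQ1OT1 silences imprinted genes from the locus it is transcribed from. NORAD is abundant in the cytoplasm and is known for keeping chromosome number stable, OIP5-AS1 binds the mRNA-stabilizing protein ELAVL1, and TUG1 is found in both compartments.

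Gradient fractions separate RNA by its sedimentation, which rises with ribosome load, and not by compartment. The lysis buffer held NP-40 and deoxycholic acid, nuclei were not collected apart, and how much nuclear RNA entered the lysate was not measured. Labels name an mRNA library kit, which selects poly-A tails, whereas the study's methods describe removal of ribosomal RNA, so which of them was used cannot be settled from these sources. MALAT1 and the long NEAT1 transcript end in a triple helix in place of a poly-A tail, and the part of the library preparation in their levels was not tested. A level here is a share of one fraction's RNA, so fewer molecules per cell and fewer cells cannot be told apart.

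On GRCh38, MALAT1 (ENSG00000251562) lies on chromosome 11 from 65497688 to 65506516 on the plus strand. NEAT1 (ENSG00000245532) lies on the same chromosome and strand from 65422774 to 65445540. KCNQ1OT1 (ENSG00000269821) runs on the minus strand of chromosome 11 from 2608328 to 2699994, antisense to KCNQ1. NORAD (ENSG00000260032) is on the minus strand of chromosome 20 from 36045622 to 36050960. OIP5-AS1 (ENSG00000247556) is on the plus strand of chromosome 15 from 41283990 to 41309737, and TUG1 (ENSG00000253352) on the plus strand of chromosome 22 from 30969245 to 30979395. GENCODE release 29 lists the first, the second and NORAD as intergenic, KCNQ1OT1 as antisense, OIP5-AS1 as a processed transcript and TUG1 as a noncoding RNA of a bidirectional promoter. Whether reads were counted by strand is not given in the sources used here, so reads of KCNQ1OT1, OIP5-AS1 or TUG1 and of an overlapping gene on the other strand cannot be told apart.

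The longest transcripts of the members differ in the protein-binding letters they hold. The RNA-binding protein hnRNPK, studied here together with CBFB, binds cytosine-rich stretches such as CCTCCC, which were searched on the transcript strand of the GENCODE 29 sequences. CCTCCC was found 2 times in MALAT1, where 92.8% of long noncoding genes of like length (within a factor of 2) held it. It was found 11 times in NEAT1, 55 times in KCNQ1OT1 and 4 times in OIP5-AS1. The median count in long noncoding genes of like length was 4 for MALAT1, 9 for NEAT1 and 4 for OIP5-AS1. NORAD and TUG1 held 0 matches of CCTCCC, whereas 83.1% and 82.5% of long noncoding genes of like length held at least 1. From the second on, at base 7318, the NEAT1 matches lie past the 3441 and 3524 bases of its short transcripts. OIP5-AS1 was searched on a transcript of 8829 bases. Its deposited length, weighted by transcript abundance, was 923.87 to 1661.16 bases. A match is a stretch of letters and not a measured binding site. The nuclear members and OIP5-AS1 hold the cytosine-rich element, while NORAD and TUG1 do not. Holding it is common, since 94.1% of long noncoding genes of like length to NEAT1 and 92.7% of those to OIP5-AS1 do. KCNQ1OT1 has no comparison, as its group of like length held only itself. Windows of MALAT1 (bases 1194 to 1199 and 7030 to 7035) and NEAT1 (bases 905 to 910) are printed to show it in capitals.
MALAT1 first: actactttttgCCTCCCtcacaaaggcg
MALAT1 second: tttctctctccCCTCCCttggtcttaat
NEAT1: caccccttcttCCTCCCtttaacttatc

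Each library held between 41050325 and 63886726 expected counts (RSEM's estimate of reads per gene), with a median of 51180936. The share of mitochondrially encoded genes was 71.56% and 87.22% in CBFB_KO free, 11.1% and 20.81% in WT free, and between 1.26% and 8.08% elsewhere. The CBFB_KO poly libraries were nearly identical, with a mean chi-square of 2.3 per gene between them against 128.9 to 961.9 in the other conditions, so the tests of poly against free and mono in CBFB_KO, and those between genotypes, are also given with the pair as 1 sample. Of the basal markers of the line, KRT5 was between 157.8 and 2342.87 FPKM (fragments scaled by transcript length and library total). KRT17 ranged from 14.55 to 2580.52 and KRT14 from 0.24 to 163.33. TP63 ranged from 0.24 to 13.49 and LAMB3 from 1.49 to 115.05. Leukocyte PTPRC and luminal PGR were listed at 0 in all libraries. Luminal ESR1 had 0.04 to 0.79 FPKM, and fibroblast COL1A1 reached 2.24 FPKM. CBFB itself had 288 to 982 expected counts in WT and 139 to 340 in CBFB_KO, ranges that overlap, and in the free fraction 2.14 and 5.55 FPKM against 2.46 and 1.21. A CRISPR deletion need not remove the mRNA, so these counts do not check the label.

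KCNQ1OT1, the silencing RNA of the imprinted KCNQ1 region, was barely sampled. Its expected count was 0 to 11 per library, with a median of 2.5 and a sum of 35 over 12 libraries. It was at 0 in 3 libraries, and 7 of 12 were at or under 3 counts, the smallest count read as detection, which is between 4.7e-06 and 7.3e-06 percent of a library. The deposited FPKM was listed at 0 throughout. No fold change is given for it, and a difference between fractions or genotypes was not detectable at this depth.

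In the figures and sentences that follow, levels are CPM values after TMM scaling (TMM-CPM), in which the libraries are brought to a common middle. Changes are log2 differences from edgeR's quasi-likelihood fit over all 12 libraries with their standard error (SE), and p-values are Benjamini-Hochberg adjusted over the 16275 genes. A gene is called changed at an adjusted p under 0.05.

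**Figure D1:**
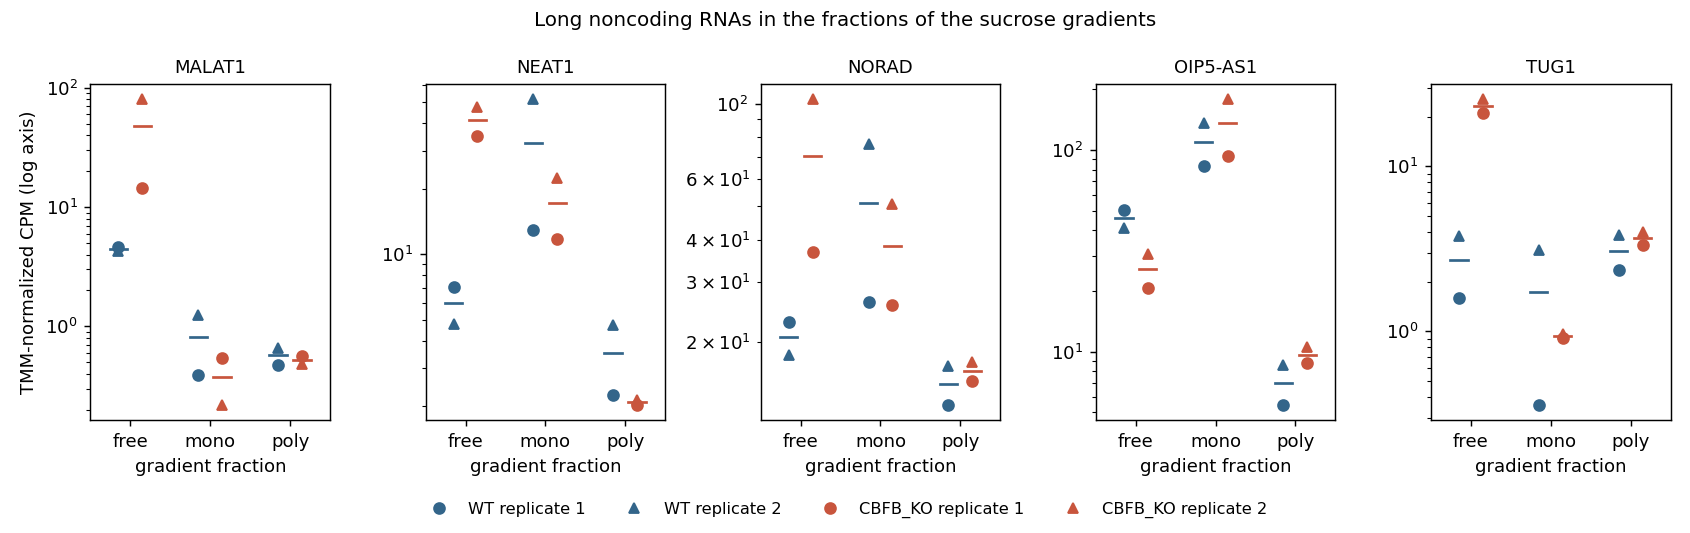
Level of each tested long noncoding RNA (log axis, TMM-normalized CPM) in the free, mono and poly fractions; each point is 1 library, circles are replicate 1 and triangles replicate 2, blue is WT, red is CBFB_KO, and bars are means. MALAT1 and TUG1 stand highest in the CBFB_KO free libraries, OIP5-AS1 stands highest in the mono fraction of both genotypes, and all but TUG1 are lowest or near their lowest in poly.

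MALAT1, the nuclear speckle RNA, was highest in the free fraction of both genotypes. In WT it had 4.64 and 4.24 TMM-CPM in the free, 0.39 and 1.25 in the mono and 0.48 and 0.66 in the poly libraries. In CBFB_KO it had 14.48 and 80.61 in the free, 0.54 and 0.22 in the mono and 0.57 and 0.48 in the poly libraries. The free libraries thus lay above all mono and poly libraries, and the CBFB_KO free libraries, which differed from each other by 5.57 times, above the WT ones. Mono and poly overlapped in both genotypes. The values rest on 8 to 797 expected counts per library.

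NEAT1, the paraspeckle scaffold, was spread over the free and mono fractions and was low in the poly fraction. WT levels were 7.11 and 4.78 TMM-CPM in free, 12.87 and 51.85 in mono and 2.26 and 4.73 in poly. CBFB_KO levels were 35.17 and 47.84 in free, 11.76 and 22.53 in mono and 2.03 and 2.14 in poly. The poly libraries were the lowest in each genotype, and the CBFB_KO free libraries lay above the WT free ones. In WT the mono libraries lay above the free ones, while in CBFB_KO they lay below them.

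On the TMM-CPM scale, NORAD was lowest in the poly fraction of both genotypes. In WT its libraries had 22.92 and 18.41 TMM-CPM in free, 26.28 and 75.97 in mono and 13.14 and 17.00 in poly. In CBFB_KO they had 36.86 and 103.26 in free, 25.71 and 51.01 in mono and 15.40 and 17.54 in poly. Poly libraries were below all others, and mono and free overlapped in CBFB_KO only. By mean FPKM poly was not below free, with 5.055 against 4.725 in WT and 5.51 against 4.21 in CBFB_KO.

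OIP5-AS1, the ELAVL1-binding RNA, peaked in the mono fraction. Its WT levels were 50.64 and 41.21 TMM-CPM in free, 83.02 and 136.67 in mono and 5.47 and 8.61 in poly. The CBFB_KO levels were 20.81 and 30.54 in free, 93.91 and 179.43 in mono and 8.78 and 10.54 in poly. In each genotype the order was mono, free and poly with no overlap, and CBFB_KO was below WT in the free fraction.

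TUG1, found in nucleus and cytoplasm, had no order among the fractions in WT and was highest in free in CBFB_KO. Its WT libraries had 1.58 and 3.79 TMM-CPM in free, 0.36 and 3.10 in mono and 2.35 and 3.83 in poly, which all overlap. CBFB_KO libraries had 21.07 and 25.59 in free, 0.91 and 0.96 in mono and 3.33 and 3.98 in poly. Here the order was free, poly and mono with no overlap.

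Per length, OIP5-AS1 was the most abundant member in WT poly with 12.68 ± 3.95 FPKM (SD, n = 2), followed by NORAD with 5.06 ± 1.25. NEAT1 with 1.5 ± 0.98 and TUG1 with 1.32 ± 0.64 overlapped, and MALAT1 was lowest with 0.26 ± 0.09. MALAT1 stayed between 0.02 and 3.53 FPKM over all libraries, and its mean was below those of the 4 other tested members in each of the WT conditions.

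The first question of the design is which RNAs were in the poly fraction in WT. In WT, MALAT1 was 7.77-fold and OIP5-AS1 6.53-fold lower in poly than in free. The log2 change was -2.96 for MALAT1 (SE 0.77, adjusted p = 0.0203) and -2.71 for OIP5-AS1 (SE 0.48, adjusted p = 0.00393). NEAT1 (-0.77, SE 0.61, adjusted p = 0.392), NORAD (-0.46, SE 0.59, adjusted p = 0.61) and TUG1 (0.20, SE 0.73, adjusted p = 0.875) did not pass. So 2 of 5 tested members fell, beside 7.99% of all genes, and poly and free did not overlap for 4 of 5, beside 62.4% of all genes. MALAT1 stood at the 5.0th percentile of all genes in this change and OIP5-AS1 at the 6.0th. Among the 1649 tested long noncoding genes they stood at the 18.6th and 22.5th, since this class as a whole had a median of -1.41 and protein-coding genes 0.28. The MALAT1 call needed both WT gradients and that of OIP5-AS1 needed replicate 1: without WT replicate 1 MALAT1 had -2.65 (adjusted p = 0.155) and OIP5-AS1 -2.24 (0.0853), and without WT replicate 2 they had -3.20 (0.0961) and -3.14 (0.027).

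In CBFB_KO all 5 tested members were lower in poly than in free, beside 16.7% of all genes, and none of the 5 overlapped, beside 78.3%. The decrease was 89.64-fold for MALAT1 (log2 -6.49, SE 0.90, adjusted p = 0.00054) and 19.87-fold for NEAT1 (log2 -4.31, SE 0.70, adjusted p = 0.00122). TUG1 fell 6.38-fold (log2 -2.67, SE 0.77, adjusted p = 0.0228), but had -0.40 without TMM factors (adjusted p = 0.697) and -1.69 with the length trend removed (adjusted p = 0.0749). NORAD fell 4.25-fold (log2 -2.09, SE 0.62, adjusted p = 0.0246) and OIP5-AS1 2.65-fold (log2 -1.41, SE 0.46, adjusted p = 0.0386), but without TMM factors these turned to 0.40 and 0.92, and NORAD had -0.55 with the length trend removed (adjusted p = 0.421). With the CBFB_KO poly pair as 1 sample only MALAT1 (adjusted p = 0.011) and NEAT1 (adjusted p = 0.0208) passed. Without CBFB_KO replicate 2, whose free library had 87.22% mitochondrial counts, MALAT1 alone passed (log2 -4.65, adjusted p = 0.0492). Without CBFB_KO replicate 1 the passing members were MALAT1, NEAT1 and NORAD.

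**Figure D2:**
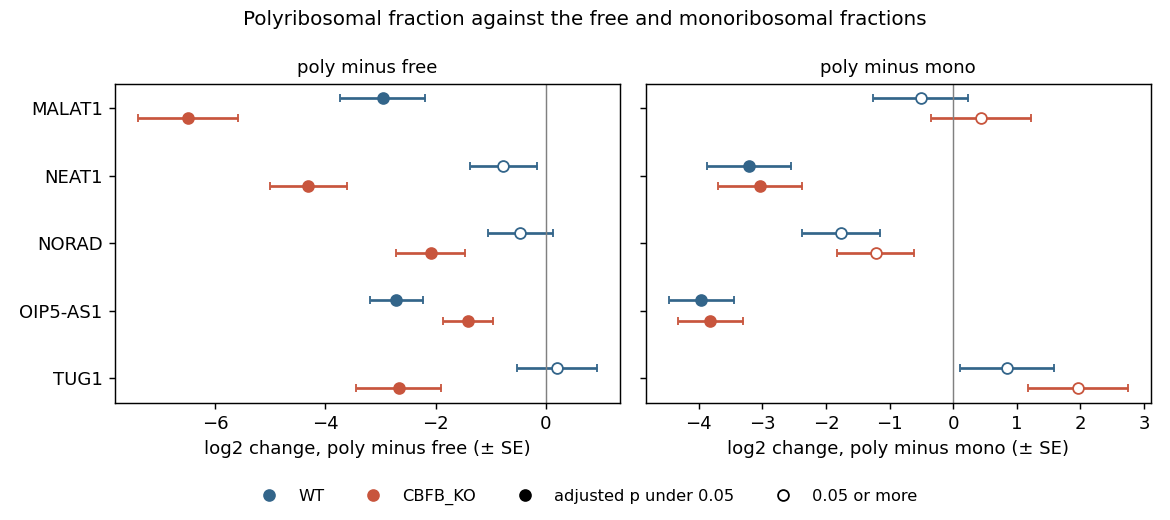
Log2 change (x axis, ± SE) of each long noncoding RNA between poly and free (left) and poly and mono (right) in WT (blue) and CBFB_KO (red); filled points have an adjusted p under 0.05. On the left MALAT1 reaches -6.49 in CBFB_KO against -2.96 in WT, while on the right NEAT1 and OIP5-AS1 lie between -3.96 and -3.04 in both genotypes.

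Between the mono and poly fractions, the same 2 members were lower in poly in both genotypes. Whether the members in these fractions were bound by ribosomes was not tested. NEAT1 was 9.25-fold lower in poly than in mono in WT (log2 -3.21, SE 0.66, adjusted p = 0.0078) and 8.21-fold in CBFB_KO (log2 -3.04, SE 0.66, adjusted p = 0.0127). OIP5-AS1 was 15.61-fold lower in WT (log2 -3.96, SE 0.51, adjusted p = 0.00313) and 14.14-fold in CBFB_KO (log2 -3.82, SE 0.51, adjusted p = 0.00571). NORAD had -1.76 in WT (adjusted p = 0.061) and -1.22 in CBFB_KO (adjusted p = 0.185). MALAT1 had -0.51 and 0.44, and TUG1 had 0.84 and 1.96 (adjusted p = 0.104), so no member was called higher in poly. TUG1 in CBFB_KO did pass without TMM factors (2.90, adjusted p = 0.0386), with no filter on low counts (2.00), in the gradient block (1.95) and without WT replicate 1 (1.97) or 2 (2.20), while NEAT1 in CBFB_KO did not pass without TMM factors (-2.04, adjusted p = 0.0553). The 2 of 5 members that fell stand beside 9.68% of all genes in WT and 8.66% in CBFB_KO, and 3 and 4 of 5 did not overlap, beside 67.2% and 76.8%. OIP5-AS1 was at the 1.4th percentile of all genes in WT and the 1.0th in CBFB_KO. Of tested long noncoding genes 16.98% and 15.46% were called lower. Among these genes OIP5-AS1 was at the 6.2nd and 4.7th percentile, and NEAT1 at the 13.2nd and 11.2nd. With the CBFB_KO poly pair as 1 sample, neither NEAT1 (-2.98, adjusted p = 0.128) nor OIP5-AS1 (-3.76, adjusted p = 0.0734) passed in CBFB_KO, and 0 of all genes did. Without WT replicate 2 the WT values were -2.35 (adjusted p = 0.0756) and -3.76 (adjusted p = 0.0569), and without CBFB_KO replicate 1 or 2 neither passed in CBFB_KO, where 1 gene in all was called.

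The sedimentation of an RNA also moved with its length, and the tested members range from 1208 bases for OIP5-AS1 to 6150 for NEAT1 by their mean RSEM length. In WT the median change between poly and mono was -1.51 for the 3040 genes under 1000 bases and 1.04 for the 1786 genes of 4000 to 8000 bases. MALAT1, NEAT1 and NORAD are in the latter group, where NEAT1 stood at the 0.4th percentile in WT and the 0.5th in CBFB_KO, and NORAD at the 2.7th and 2.9th. OIP5-AS1, among the 5702 genes of 1000 to 2000 bases, was at the 1.0th and 0.6th. With the length trend of each library removed, an alternative chosen after seeing the data, NORAD also passed between poly and mono, with -2.67 in WT (adjusted p = 0.00908) and -2.28 in CBFB_KO (adjusted p = 0.0201). NEAT1 then had -4.19 and -4.15. Between poly and free in WT, the same step gave 4 members called lower: MALAT1 -4.07, NEAT1 -1.98, NORAD -1.58 and OIP5-AS1 -2.51, with adjusted p of 0.00312, 0.0186, 0.0451 and 0.00491. TUG1 had 0.20 before this step and -0.67 after it (adjusted p = 0.483).

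The transcripts that RSEM weighed for a gene also differed between fractions, as its abundance-weighted length shows. NEAT1 is annotated with short transcripts of 3441 and 3524 bases and the paraspeckle-forming one of 22743. Its length was 7071.61 and 8086.47 bases in the WT free libraries, 4756.5 and 5172.04 in mono and 4810.67 and 4073.97 in poly. WT free libraries were above all WT ribosomal ones. Taking the GENCODE 29 lengths, the long transcript made up 18.5 to 24.1% of NEAT1 in WT free and 2.9 to 9.0% in WT mono and poly. In CBFB_KO this order did not hold, with 6808.42 and 6764.88 bases in free, 4059.88 and 7413.32 in mono and 7363.21 and 7415.49 in poly. These are RSEM's assignments of reads that the transcripts share at their common start, and carry no test. The annotation that RSEM used differed from GENCODE 29 for TUG1, so its NEAT1 lengths may differ too.

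MALAT1 had the same order in WT for free against the rest, with 8708 and 7382.3 bases in free, 2976.95 and 2367.3 in mono and 4126.57 and 3960.97 in poly. In CBFB_KO it had 7686.66 and 5735.33 in free, 8708 in both mono libraries, which hold 29 and 8 counts, and 3872.2 and 3805.74 in poly. OIP5-AS1 moved the other way between genotypes: its length in free was 1000.31 and 952.73 bases in WT and 1661.16 and 1634.73 in CBFB_KO. Its mono libraries were between 923.87 and 1074.68 in both genotypes.

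**Figure D3:**
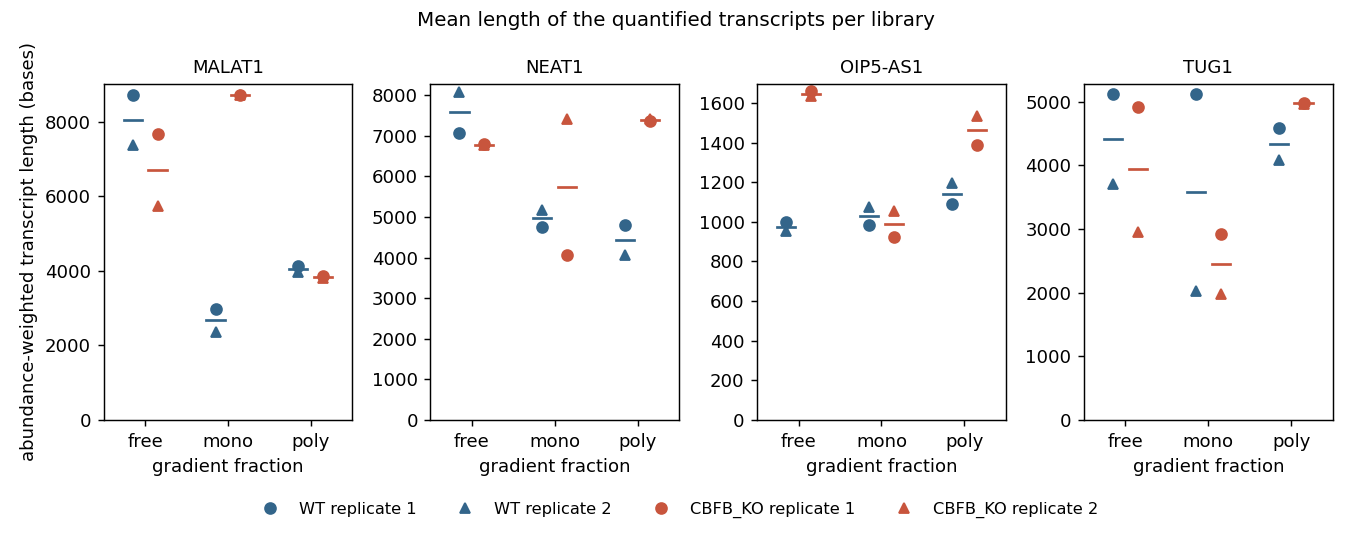
Abundance-weighted mean length of the quantified transcripts (y axis, bases) of 4 members with several annotated transcripts, by fraction; each point is 1 library, bars are means, blue is WT and red is CBFB_KO. Within WT, NEAT1 and MALAT1 are longest in free, and OIP5-AS1 in free is near 1000.31 bases in WT and 1661.16 in CBFB_KO.

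The comparison at the centre of the study is CBFB_KO against WT in each fraction. In the free fraction 4 of 5 tested members were higher in CBFB_KO, beside 24.2% of all genes: MALAT1 10.67-fold (log2 3.42, SE 0.77, adjusted p = 0.00672), TUG1 8.66-fold (3.11, SE 0.79, adjusted p = 0.0112), NEAT1 6.97-fold (2.80, SE 0.65, adjusted p = 0.00765) and NORAD 3.39-fold (1.76, SE 0.61, adjusted p = 0.0379), the last of which turned to -0.17 without TMM factors. NORAD also did not pass by edgeR in the free libraries alone (1.83, adjusted p = 0.131). Its call was lost too with the CBFB_KO poly pair as 1 sample (1.76) and without WT replicate 1 (1.92) or 2 (1.55). OIP5-AS1 had -0.84 (SE 0.46, adjusted p = 0.156). Groups did not overlap for 5 of 5 members, beside 68.9% of all genes. These values share the CBFB_KO free libraries with the poly to free comparison in CBFB_KO and are not separate evidence for it.

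Long transcripts as a whole were higher in the CBFB_KO free fraction. All tested genes of 4000 to 8000 bases had a median change of 2.34, with 59.6% called higher, and those under 1000 bases had -1.12, with 7.0% called higher. Within its own length group MALAT1 was at the 69.7th percentile, NEAT1 at the 59.2nd, NORAD at the 37.5th and OIP5-AS1 at the 46.1st. TUG1, among genes of 2000 to 4000 bases with a median of 0.73, was at the 82.9th. With the length trend removed, 0 of 5 members were called by edgeR: MALAT1 had 0.70 (adjusted p = 0.396), NEAT1 0.04 (0.964), NORAD -0.82 (0.214), OIP5-AS1 0.00 and TUG1 1.34 (0.134).

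**Figure D4:**
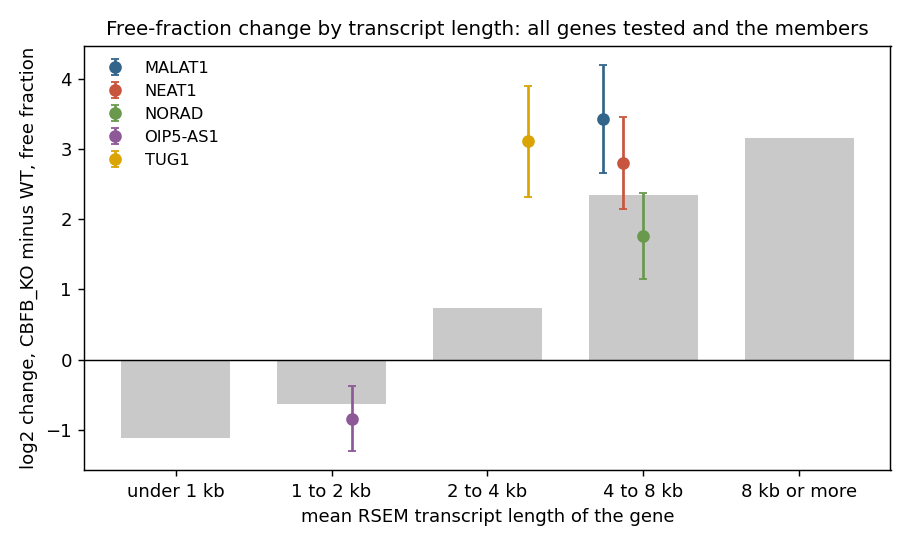
Grey bars are the median log2 change in the free fraction, CBFB_KO minus WT, of all tested genes grouped by mean RSEM transcript length; colored points are the members in their own group with ± SE. The medians climb from -1.12 under 1 kb to 3.16 at 8 kb or more, and MALAT1, NEAT1 and NORAD lie around the 2.34 of the 4 to 8 kb group.

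The calls in the free fraction also changed with the scaling and when CBFB_KO replicate 2 was left out. That fit has 1 CBFB_KO free library, so its lost calls cannot separate a smaller change from fewer libraries. By size, MALAT1 and NORAD shrank in that fit, while NEAT1 (2.80 to 2.58) and TUG1 (3.11 to 2.98) moved little. Without CBFB_KO replicate 2 no member was called, with MALAT1 at 1.72 (adjusted p = 0.168), NEAT1 at 2.58 (0.0645), NORAD at 0.85 (0.393) and TUG1 at 2.98 (0.0911). With library size alone, which lowers the median change of all genes by 1.64 on the log2 scale, OIP5-AS1 was the 1 member called and it was lower in CBFB_KO (-2.61, adjusted p = 0.00466). MALAT1 then had 1.34, NEAT1 1.05 and TUG1 1.35, with adjusted p of 0.124, 0.192 and 0.178. The mitochondrial share of the free libraries moved with genotype, and its part in the result was not tested beyond leaving out those genes, after which 4 members were called.

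**Figure D5:**
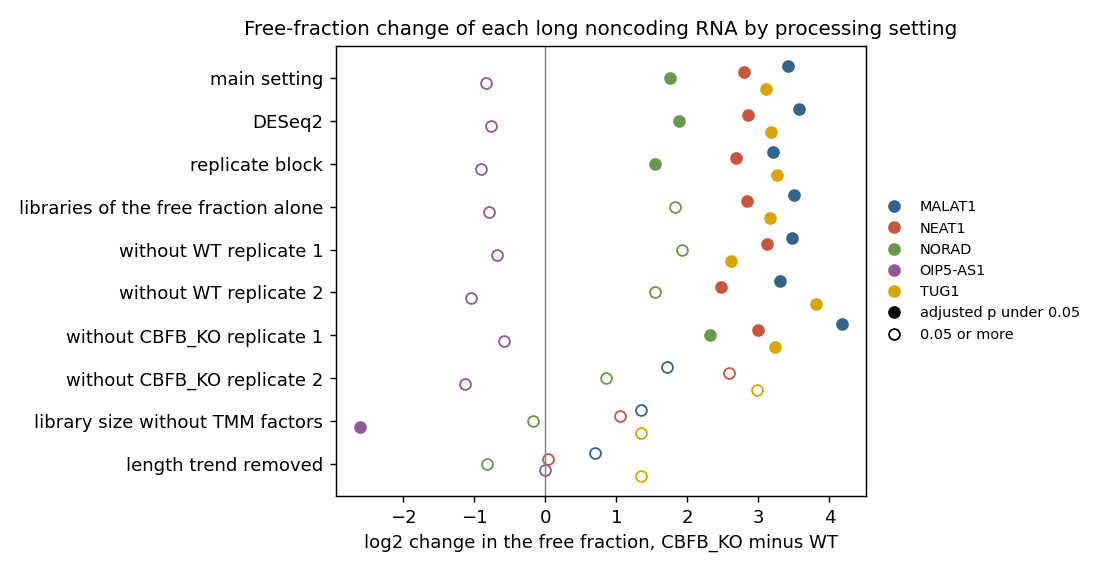
Log2 change in the free fraction, CBFB_KO minus WT (x axis), of each long noncoding RNA under 10 processing settings (rows); filled points have an adjusted p under 0.05. MALAT1, NEAT1 and TUG1 are called in the first 7 rows, no member is called without CBFB_KO replicate 2 or with the length trend removed, and without TMM factors OIP5-AS1 alone is called, at -2.61.

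In the mono fraction no tested member was called between genotypes by edgeR, and all adjusted p were 1. The changes were -1.06 for MALAT1, -0.92 for NEAT1, -0.41 for NORAD, 0.32 for OIP5-AS1 and -0.88 for TUG1, with SE of 0.45 to 0.80 and no unadjusted p under 0.05. Over all genes 0.147% were called, 4.37% had an unadjusted p under 0.05, and DESeq2 also called 0 members. The WT and CBFB_KO libraries overlapped for each of the 5, where 29.9% of all genes did not.

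In the poly fraction no tested member was called by edgeR either. MALAT1 had -0.11, NEAT1 -0.74, NORAD 0.13, OIP5-AS1 0.46 and TUG1 0.24, with SE of 0.46 to 0.75, adjusted p of 1 and 0 unadjusted p under 0.05. Over all genes 0.19% were called and 2.77% had an unadjusted p under 0.05, and DESeq2 called 0 members. NEAT1 (2.03 and 2.14 in CBFB_KO, 2.26 and 4.73 in WT) and OIP5-AS1 did not overlap, 2 of 5 members beside 49.7% of all genes. With the CBFB_KO poly pair as 1 sample the changes were between -0.70 and 0.51, with 0 members called and adjusted p of 1. These intervals are wide, and a p above the threshold does not show that the levels were equal.

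Whether the poly to free change itself differed between genotypes was tested as an interaction. It was lower in CBFB_KO for MALAT1 (log2 -3.53, SE 1.05, adjusted p = 0.0394) and NEAT1 (-3.55, SE 0.89, adjusted p = 0.0207), 2 of 5 members beside 14.3% of all genes. TUG1 had -2.87 (adjusted p = 0.0759), NORAD -1.63 (0.173) and OIP5-AS1 1.30 (0.16). For genes of 4000 to 8000 bases the median was -2.50, where MALAT1 stood at the 32.1st and NEAT1 at the 31.8th percentile. With the length trend removed they had -0.72 (adjusted p = 0.606) and -0.63 (0.556), and with the CBFB_KO poly pair as 1 sample -3.49 (0.132) and -3.50 (0.0954). Without TMM factors neither passed, with -1.46 (0.271) for MALAT1 and -1.82 (0.146) for NEAT1, and OIP5-AS1 was the 1 member called, higher in CBFB_KO at 3.06 (0.0223). Without CBFB_KO replicate 2 they had -1.72 (0.461) and -3.36 (0.191), and without CBFB_KO replicate 1 -4.41 (0.0209) and -3.72 (0.0585). MALAT1 also missed the threshold without WT replicate 1 (-3.81, 0.0964) or 2 (-3.12, 0.147). The same test of poly against mono called 0 of 5 members and 0 of 16275 genes by edgeR, and 0 by DESeq2, with 1.01% of genes at an unadjusted p under 0.05. There MALAT1 had 0.95, NEAT1 0.17, NORAD 0.54, OIP5-AS1 0.14 and TUG1 1.12, and with the pair as 1 sample 0 members were called as well.

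The ratio of mean poly to mean free FPKM was 0.388 in WT and 0.111 in CBFB_KO for MALAT1. For NEAT1 it was 1.57 and 0.228, and for TUG1 1.55 and 0.588. NORAD had 1.07 and 1.31, and OIP5-AS1 rose from 0.184 to 2.13. On the log2 scale the ratio of genotypes was -1.80 ± 1.24 for MALAT1 (SD over 4 pairings of gradients), -2.78 ± 1.26 for NEAT1, -1.40 ± 0.52 for TUG1, 0.29 ± 0.42 for NORAD and 3.53 ± 0.51 for OIP5-AS1. Each pairing took the poly and free library of the same replicate number within a genotype. The 4 pairings reuse the same ratios and are not independent. The CBFB_KO ratio was less than 0.5 of the WT ratio for 3 of 5 members, beside 14.4% of 14883 genes, and with a pseudocount of 1 for 1 member. OIP5-AS1 had 69.7 and 67.89 FPKM in WT free and 7.1 and 5.23 in CBFB_KO free. Its change is larger in FPKM than in TMM-CPM, and FPKM divides by a library total that held the mitochondrial counts and by the length that moved between genotypes. The part of both was not tested.

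Other long noncoding RNAs known from the cytoplasm were also low in the poly fraction in WT. In WT 7 of 9 tested fell between free and poly, beside 7.99% of all genes and 18.01% of tested long noncoding genes, with a median of -2.10 beside 0.08 and -1.41. They included SNHG5 (-3.01), SNHG1 (-2.56), GAS5 (-2.46) and DANCR (-2.36), whose introns carry small nucleolar RNAs. With library size alone 3 of 9 fell, and with the length trend removed 7. In CBFB_KO 1 of 9 fell between free and poly, beside 16.7% of all genes, with a median of 0.42, and with library size alone 0 fell and 7 were higher. From mono to poly 8 of 9 fell in WT and 7 of 9 in CBFB_KO (9.68% and 8.66% of all genes), led in both by SNHG5 (-3.99 and -3.77) and SNHG6 (-3.44 and -3.40). With the length trend removed these were 5 and 4, and with library size alone 5 and 2. With the CBFB_KO poly pair as 1 sample 0 of all genes were called from mono to poly in CBFB_KO, so the 7 calls were lost. In the free fraction 6 of 9 were lower in CBFB_KO, beside 18.1% of all genes, while MALAT1, NEAT1, NORAD and TUG1 were higher: DANCR (-2.80), SNHG1 (-2.18), EPB41L4A-AS1 (-1.94) and GAS5 (-1.81) had the largest changes. These RNAs are short, with a median length of 724 bases, and 5 of 9 were lower with the length trend removed. Of 5 other nuclear long noncoding RNAs 3 were tested. Their median from free to poly was -2.54 in WT and -2.94 in CBFB_KO. Of the 3, 0 and 1 were called lower, beside 7.99% and 16.7% of all genes. From mono to poly the median was -2.48 and -2.04, with 1 and 0 called lower (9.68% and 8.66% of all genes). Without TMM factors 0 of the 3 were called in these comparisons. SNHG14, a long host transcript of small nucleolar RNAs, was higher in CBFB_KO free (2.33, adjusted p = 0.0272). In that comparison 0 of the 3 were called without TMM factors or with the length trend removed.

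Among mRNAs of proteins that work with the members, those called between mono and poly in the paraspeckle and nuclear speckle lists were higher in poly. In CBFB_KO most of those called between free and poly were lower in poly with TMM factors, but not without them. Between free and poly in WT, 4 paraspeckle mRNAs were higher and 0 lower, and 1 nuclear speckle mRNA was higher and 1 lower. Over all genes 14% were higher and 7.99% lower in that WT comparison. Of 11 paraspeckle proteins 5 were higher in poly than in mono in WT and 5 in CBFB_KO, led by SFPQ (2.93 and 2.96) and TARDBP (2.53 and 2.65), and 0 were lower; over all genes 11% and 8.2% were higher. Of 7 nuclear speckle proteins 3 were higher in both genotypes: SON (2.62 and 2.36), SRRM1 (1.64 and 1.87) and SRSF1 (1.23 and 1.14). With the CBFB_KO poly pair as 1 sample these CBFB_KO calls were lost, since 0 of all genes passed. Between free and poly in CBFB_KO, 4 nuclear speckle mRNAs were lower in poly, with SON at -4.08, SRRM1 at -3.83, SRRM2 at -3.65 and SRSF1 at -1.49, and 1 was higher, while 2 paraspeckle mRNAs were lower, among them NONO (-2.22), and 1 was higher, beside 16.7% of all genes lower. Without TMM factors 3 nuclear speckle mRNAs were lower and 3 higher in that comparison, and 9 paraspeckle mRNAs were higher and 0 lower. CBFB_KO free libraries had 24.2% of all genes above WT and 18.1% below it by the same test. There 6 of the 11 paraspeckle proteins were higher, with NONO at 2.76 and TARDBP at 2.45, but 0 were higher and 3 lower without TMM factors. SON (4.41), SRRM1 (3.8), SRSF1 (3.45) and SRRM2 (2.50) of the nuclear speckle were higher there, and 2 others lower, against 3 higher and 3 lower without TMM factors. Among protein partners of the cytoplasmic members, RBMX, a partner of NORAD, rose in CBFB_KO free (3.44, adjusted p = 0.000179), while KHDRBS1 and ELAVL1 did not pass. Of 7 genes beside the members' loci 4 were lower there, among them OIP5 next to OIP5-AS1 (-1.62, adjusted p = 0.0219), and 1 was higher, beside 18.1% and 24.2% of all genes. Without TMM factors 6 of the 7 were lower and 0 higher.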

How the data were processed

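Libraries of 3 gradient fractions from both genotypes were made by the authors, and the labels gave each library's group and replicate number. The submitters' processing notes name Trimmomatic, STAR, RSEM and the build hg19. Versions and the annotation release are not given in the sources used here. Expected counts, deposited by the authors, are estimated reads per gene and are not normalized. TPM and FPKM, also deposited by the authors, correct for length and library total. The deposited gene length, a score of RSEM in bases, is weighted by transcript abundance. Hand-typed notes beside some tables were not used.

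After rounding the expected counts, a quasi-likelihood model with TMM factors was run in edgeR 4.0.16 under R 4.3.3 with limma 3.58.1, using filterByExpr (minimum count 10) and 1 mean per condition over 12 libraries, without a block. Calls required a p under 0.05 after Benjamini-Hochberg adjustment. SE is the size of the log2 change over the square root of F. Sequences and coordinates came from GENCODE 29 (GRCh38), and no coordinate was converted. The scripts were tested on simulated data. DESeq2 1.42.0 and Python 3.11.15 (numpy 2.4.6, pandas 2.3.3, matplotlib 3.10.9) were also used.

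The named genes are the 6 members, CBFB, up to 4 called genes of each list with the largest change, and the 2 genes most like each member over the 12 libraries. The members and lists were chosen with earlier results of these data known, and so were the tests. SNHG8 was not matched, PECAM1 of the marker list neither, and LINC-PINT has 2 identifiers, of which the one with more counts was used. Some protein partners of the cytoplasmic members, and a motif search, are not reported here. Detection limits cover counting error only. The 3 libraries of one genotype and number may come from 1 gradient. Deviations of same-numbered libraries from their means correlated by -0.16 to 0.28 over 15 pairs of conditions. The main test therefore took no pairing from the numbers. Only the pairings of the FPKM ratio, the replicate and gradient blocks and the leaving out of gradients did. Alternatives were library size without TMM factors, DESeq2, no filter, no mitochondrial genes, replicate and gradient blocks, 1 fraction alone, the CBFB_KO poly pair as 1 sample, leaving out each gradient, a pseudocount on FPKM and, added after seeing the data, removing the length trend (a lowess curve per library) as an offset.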

Additional observations from a re-analysis of the deposited data

Results flagged for a closer look

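The poly to free change of MALAT1 differed between the genotypes, with an interaction of -3.53 on the log2 scale (edgeR, adjusted p = 0.0394), and that of NEAT1 with -3.55 (adjusted p = 0.0207). MALAT1 fell from free to poly in both genotypes, with log2 changes of -2.96 in WT and -6.49 in CBFB_KO, and NEAT1 passed in CBFB_KO with -4.31 but not in WT with -0.77. Removing the length trend left -0.72 and -0.63, and library size without TMM factors -1.46 and -1.82, none of which passed, and 14.3% of all genes were called lower in the same test. Conditions of 2 libraries are too small for a check of single libraries against their group.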

How the results depend on the processing

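Of 540 log2 changes of single members recomputed under alternatives, 441 kept their direction and their side of the threshold, 20 gained and 52 lost a call, and 27 turned. Counts of called members changed as follows. Leaving out 1 gradient gave 0 to 2 in WT poly against free, 1 to 4 in CBFB_KO poly against free, 0 to 2 in WT and 0 to 3 in CBFB_KO poly against mono, 0 to 4 for CBFB_KO against WT in free and 0 to 2 for the poly to free interaction. Where a CBFB_KO gradient was left out, 1 gene of all was called between poly and mono in CBFB_KO, and without WT replicate 2 there were 0 in WT, so those counts say nothing of the members. Removing the length trend gave 4, 3, 3, 3, 0 and 0 in the same order. Library size alone gave 2 in CBFB_KO poly against free, 1 in free and 1 in the interaction, which was OIP5-AS1, higher at 3.06, with MALAT1 and NEAT1 no longer called. The CBFB_KO poly pair as 1 sample gave 2 in CBFB_KO poly against free, 0 against mono, where 0 of all genes were called, and 0 in the interaction. The FPKM ratio was below 0.5 of WT for 1 member with a pseudocount of 1, against 3 without. Over all genes, the calls in free were 3943 higher and 2939 lower, but 1466 and 157 without CBFB_KO replicate 2, and those of CBFB_KO poly against free were 2381 and 2723, but 97 and 449 without that replicate and 1024 and 1008 with the poly pair as 1 sample. The interaction calls were 668 and 2332, but 2 and 360, and 28 and 760, in these settings. DESeq2 called 2759 higher and 2325 lower in WT poly against free, against 2273 and 1301. Apart from construction with fewer samples, the cause was not tested.

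Turned values without TMM factors were NORAD in WT poly against free (0.10), NORAD and OIP5-AS1 in CBFB_KO (0.40 and 0.92), MALAT1 in WT poly against mono (0.39), NORAD in free (-0.17) and NORAD in the poly to free interaction (0.30). This setting moved the median of all genes by 0.54 in WT and 2.17 in CBFB_KO poly against free, 0.87 and 0.94 against mono, -1.64 in free and 1.64 in the interaction, and the calls in free to 1281 higher and 6461 lower, in CBFB_KO poly against free to 7669 and 566 and in the interaction to 3003 and 646. Removing the length trend turned TUG1 in WT poly against free (-0.67), MALAT1 in CBFB_KO poly against mono (-0.68), NORAD (-0.82) and OIP5-AS1 (0.00) in free and NORAD in the interaction (1.03). Leaving out a gradient turned values that were not called: NEAT1 ranged from -1.59 to 0.01 in WT poly against free and MALAT1 from -0.90 to 0.44 against mono. In mono, CBFB_KO against WT, NEAT1 ranged from -1.60 to 0.35, NORAD from -0.99 to 0.48, OIP5-AS1 from -0.23 to 0.71 and TUG1 from -1.73 to 1.33. In poly, MALAT1 ranged from -0.33 to 0.17, NORAD from -0.05 to 0.36 and TUG1 from -0.07 to 0.68. In the poly to mono interaction NEAT1 ranged from -0.43 to 0.68, NORAD from -0.12 to 1.02, OIP5-AS1 from -0.13 to 0.55 and TUG1 from -0.66 to 1.65.

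The replicate block, whose pairing rests on the number alone, kept 2, 5, 2 and 4 members called in WT and CBFB_KO poly against free, CBFB_KO poly against mono and free, and added 1 each in WT poly against mono (3, with NORAD at -1.63) and in the interaction (3, with TUG1 at -2.95). In the gradient block the MALAT1 interaction (-3.28) no longer passed. KCNQ1OT1 with 35 counts in all, and MALAT1 in mono with 8 to 58, are limited by depth.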

Other observations

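Over the 12 libraries the levels of NEAT1 and NORAD ran together (Pearson's r of log2 TMM-CPM = 0.93), as did those of MALAT1 and TUG1 (0.78), while OIP5-AS1 and TUG1 did not (-0.42). Of 7652 genes compared, MXD1 (0.979) and GATA3 (0.957) were most like MALAT1, AZI2 (0.96) and NIPA2 (0.949) most like NEAT1, and UHMK1 (0.955) and AZI2 (0.953) most like NORAD. DENND10 and MIR4458HG (both 0.982) were most like OIP5-AS1, and WWC3 (0.978) and PAWR (0.965) most like TUG1. The points share fractions, genotypes and gradients, so these values describe the libraries and carry no p.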
